A study of Mus musculus with 7 samples.

Results

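The 10 glycolytic enzyme genes followed here were chosen by name, for their role in the pathway, and encode hexokinases (Hk1, Hk2), glucose-6-phosphate isomerase (Gpi1), phosphofructokinases of liver and platelet type (Pfkl, Pfkp), aldolase A (Aldoa), triosephosphate isomerase (Tpi1), phosphoglycerate kinase (Pgk1), enolase (Eno1) and the A subunit of lactate dehydrogenase (Ldha). Of these 10 genes, 8 had at least 1 probe set annotated to that gene alone, 18 probe sets in all of the 22626 that were not controls. Gpi1 and Eno1 had none in the annotation used and were not analysed here, and 1 further probe set that names Hk1 among several genes was left out.

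Glycolysis splits glucose into pyruvate in the cytosol, and lactate dehydrogenase then turns pyruvate into lactate while it restores the NAD+ that the pathway consumes. Hexokinases trap glucose as glucose 6-phosphate, phosphofructokinase commits the sugar to breakdown, aldolase cuts it into a pair of triose phosphates, and the lower steps return ATP. Blood stem cells of the adult bone marrow are known for a high reliance on this pathway, and the hypoxia-inducible factor HIF-1 is a textbook activator of most of its genes.

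The cells were haematopoietic stem cells of mouse fetal liver at embryonic day 14.5, sorted as Lin-Sca-1+c-Kit+CD150+. Of the 7 Affymetrix arrays, 3 came from TFIIAα-β nc/nc embryos, whose general transcription factor TFIIA cannot be cleaved at its large subunit, and 4 from wild-type embryos. Parents were heterozygous for the nc allele, which all cells of a mutant embryo carry, so that surrounding liver cells were mutant too. Each TFIIA nc/nc sample combined 2, 2 and 4 littermates, and the wild-type samples held 1, 1, 4 and 3 embryos. TFIIA helps TBP to hold TATA-containing and other core promoters, and the series asked which transcripts differ when its cleavage is blocked.

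Values are log2 of the deposited RMA intensities, and a difference is TFIIA nc/nc minus wild type on that scale, so that 1 unit is a doubling of signal. Array medians were 3.70 to 3.83, and pairs of arrays correlated at 0.966 to 0.991. In the check of the sort, Kit lay above 87.9% to 95.1% of probe sets and Slamf1, which encodes CD150, above 75.1% to 82.1%, while the T cell genes Cd3e and Cd4 stayed below the median of every array. Endothelial transcripts stood apart in 3 arrays, with a 20-gene marker mean of 6.64 and 7.07 for TFIIA nc/nc replicates 1 and 2 and of 6.81 for wild-type replicate 1. It was 4.17 for TFIIA nc/nc replicate 3 and 4.17 to 4.25 for the remaining wild-type arrays. The 3' minus 5' signal of actin, which falls with intact RNA and with complete amplification, was 2.15 to 2.99 in TFIIA nc/nc and 1.94 to 2.92 in wild type. The mean of 6 sort markers was 6.20 to 6.59 in TFIIA nc/nc against 6.41 to 6.75 in wild type, that of 11 hepatic markers 3.75 to 5.17 against 3.62 to 4.40, and that of 13 macrophage markers 3.74 to 5.37 against 2.92 to 4.49. At an unadjusted limma p under 0.05, 2 of the 6 sort markers were lower and 0 higher, 3 of the 11 hepatic markers were higher and 1, Krt18, lower, and 3 of the 13 macrophage markers were higher and 0 lower, with none past the adjusted threshold. Over all genes, 2.02% were higher and 2.41% lower at that p. Their part in the glycolytic values was not tested beyond the endothelial covariate. In sorted bulk samples, fewer cells of a type and less RNA per cell cannot be told apart. Over all probe sets 1 of 22626 passed limma at a Benjamini-Hochberg adjusted p under 0.05. P-values measure the spread between these samples only.

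The promoter windows of 4 members are shown because their transcripts carry the patterns described below: Pfkp and Ldha because their groups did not overlap, although neither passed the test, and Aldoa and Tpi1 because the same arrays were highest for both. The sequences are RefSeq windows of build GRCm38.p6 from 250 bases before to 50 after the annotated start, written 5′ to 3′ on the gene's strand. Capitals mark ACGTG, the core of the hypoxia response element, and GGGCGG, the box bound by Sp1, on either strand. For Ldha and Aldoa, which have several windows, the one with most copies of these letters was taken, the lower coordinate in a tie.
Pfkp, chr13:6648722-6649021, minus strand: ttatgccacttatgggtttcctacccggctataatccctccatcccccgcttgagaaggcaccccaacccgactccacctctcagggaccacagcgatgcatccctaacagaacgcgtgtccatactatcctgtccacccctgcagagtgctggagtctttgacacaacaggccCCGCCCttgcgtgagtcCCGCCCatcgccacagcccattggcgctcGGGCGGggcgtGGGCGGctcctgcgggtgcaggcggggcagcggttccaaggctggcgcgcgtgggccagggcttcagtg
Ldha, chr7:46845554-46845853, plus strand: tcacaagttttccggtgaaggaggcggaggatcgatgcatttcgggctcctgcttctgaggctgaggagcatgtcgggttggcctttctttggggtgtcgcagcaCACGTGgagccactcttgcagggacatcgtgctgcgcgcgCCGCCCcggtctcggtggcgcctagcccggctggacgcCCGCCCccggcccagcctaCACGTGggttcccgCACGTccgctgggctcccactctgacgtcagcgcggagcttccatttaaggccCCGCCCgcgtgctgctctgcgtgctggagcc
Aldoa, chr7:126799129-126799428, minus strand: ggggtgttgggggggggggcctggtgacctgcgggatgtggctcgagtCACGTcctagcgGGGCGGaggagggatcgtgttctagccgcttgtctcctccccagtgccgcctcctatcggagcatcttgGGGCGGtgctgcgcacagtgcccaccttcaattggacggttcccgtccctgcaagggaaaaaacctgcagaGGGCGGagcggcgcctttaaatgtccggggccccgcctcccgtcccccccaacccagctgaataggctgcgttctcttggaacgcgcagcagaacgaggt
Tpi1, chr6:124814109-124814408, minus strand: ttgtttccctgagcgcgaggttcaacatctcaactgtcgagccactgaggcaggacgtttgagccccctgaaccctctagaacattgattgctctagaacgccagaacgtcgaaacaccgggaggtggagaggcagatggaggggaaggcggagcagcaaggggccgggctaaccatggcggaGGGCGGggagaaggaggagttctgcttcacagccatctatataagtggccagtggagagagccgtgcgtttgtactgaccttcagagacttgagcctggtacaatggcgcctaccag

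All 10 genes of the list have windows in that table, 16 in all, some of them overlapping. GGGCGG stood in the windows of 9 of the 10 genes, against 38.2% of all 26994 genes with a window. ACGTG stood in those of 5 genes, Hk1, Hk2, Aldoa, Pgk1 and Ldha, against 21.8% of all genes. The Ldha window held 5 matches to ACGTG. The palindrome CACGTG, which counts once on each strand, gave those at −145 and −144 and those at −48 and −47 from the start. A single match stood at −34. The Pfkp window held 4 copies of GGGCGG and no ACGTG, and the Tpi1 window 1 copy of GGGCGG. The TATA sequence TATAAA, searched on both strands because TFIIA works with TBP, was in none of the 16 windows, against 15.7% of all genes. Only these exact letters were counted, and other forms of the box, such as tatataa in the Tpi1 window, were not. The count therefore does not show that these promoters lack a TATA box. All these counts are matches of letters and not measured binding sites.

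No glycolytic probe set passed limma over all probe sets (0 of 18, against a background of 0.00442%), and the differences ran from −0.57 for Aldoa to 0.56 for Pfkp. At an unadjusted limma p under 0.05, 1 of the 18 was higher and 0 were lower, where 1.91% and 2.09% of all probe sets were. In 2 of the 18, those of Pfkp and Ldha, every TFIIA nc/nc value exceeded every wild-type value, and in 0 every one was below, against 2.85% and 2.81% of all probe sets. Of the 18, 16 were at or above the median level, and at that level 493 of 11313 probe sets did not overlap higher and 324 lower. Among genes represented by 1 probe set each, 0.00807% passed, and 3.23% and 3.07% did not overlap, higher and lower. With 1 probe set per gene, that of highest mean, 5 of the 8 genes had a difference above 0, against 48.1% of all genes, and the median difference was 0.15, against −0.01 over all genes. Over the 18 probe sets the lean was the other way, with 7 above 0, 11 below and a median of −0.12. At or above the median level, 6193 of 11313 probe sets of the whole array were above 0. At the brightest probe sets, intervals at 95% bounded the ratio of TFIIA nc/nc to wild type between 0.853-fold and 1.299-fold for Hk1 and between 0.94-fold and 1.44-fold for Ldha. For Aldoa they ran from 0.55-fold to 1.12-fold at the brightest probe set and from 0.34-fold to 1.33-fold at the most spread one.

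**Figure D1:**
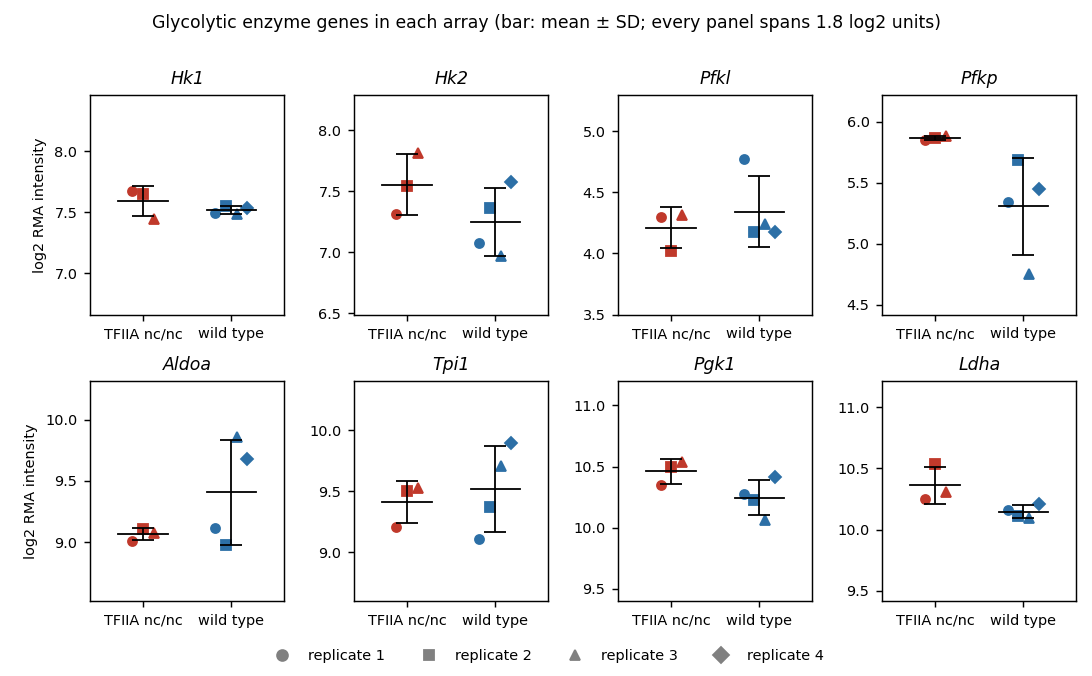
Log2 RMA intensity of 8 glycolytic genes, the probe set of highest mean for each, in 3 TFIIA nc/nc arrays (red, left) and 4 wild-type arrays (blue, right), with the mean and SD as black bars. Pfkp and Ldha are the genes whose groups do not overlap, and wild-type replicates 3 and 4 lie highest for Aldoa and Tpi1.

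Hexokinase makes the first, irreversible step. Hk1, the form found in most tissues, read 7.68, 7.65 and 7.45 in TFIIA nc/nc replicates 1 to 3, against 7.49, 7.55, 7.49 and 7.54 in wild-type replicates 1 to 4. The groups overlapped and the difference was 0.07 (SE 0.13; limma, Benjamini-Hochberg adjusted p = 0.984). Its SD over the 7 arrays was 0.09, and only 2.02% of probe sets at or above the median level had a smaller one. The other Hk1 probe set was dim in all arrays, at 1.40 to 2.27. Hk2, the inducible hexokinase and a known target of HIF-1, read 7.31, 7.54 and 7.81 in TFIIA nc/nc, against 7.08, 7.37, 6.97 and 7.58 in wild type. Wild-type replicate 4 lay above 2 of the 3 TFIIA nc/nc arrays, so the groups overlapped, and the difference was 0.31 (SE 0.20; adjusted p = 0.984 in limma, exact permutation p = 0.229). Without TFIIA nc/nc replicate 3, the highest array, it was 0.18.

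Phosphofructokinase is the committed step, and its subunits come from 3 genes. Pfkp, the platelet form, read 5.85, 5.87 and 5.89 in TFIIA nc/nc, against 5.34, 5.68, 4.75 and 5.45 in wild type. The TFIIA nc/nc arrays were nearly equal and all higher, while the wild-type arrays were spread out with replicate 3 lowest. TFIIA nc/nc averaged 5.87 ± 0.02 (SD, n = 3) and wild type 5.31 ± 0.40 (SD, n = 4). The difference was 0.56 (SE 0.21), a ratio of 1.48 with a 95% interval of 1.06 to 2.06. Its unadjusted limma p of 0.0266 was the smallest of the 18 probe sets, and its Benjamini-Hochberg adjusted p of 0.984 did not pass. The exact permutation p was 0.0571, where 35 assignments of the arrays allow no p below 0.0286. Adding the endothelial mean as covariate gave 0.56, and leaving out wild-type replicate 3 gave 0.38. The other Pfkp probe set was dim, at 2.32 to 2.87, and differed by −0.03, so the result rests on 1 probe set. Pfkl, the liver form, was near the median of the arrays. Its probe sets read 4.02 to 4.32 in TFIIA nc/nc against 4.17 to 4.78 in wild type, and 3.47 to 4.34 in TFIIA nc/nc against 3.34 to 5.28 in wild type, with differences of −0.13 and −0.28 and overlapping groups. Pfkm, the muscle form, averaged 5.05 ± 0.05 (SD, n = 3) for TFIIA nc/nc, against 5.31 ± 0.32 (SD, n = 4) for the wild type, with overlapping groups and a difference of −0.26 (SE 0.19).

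With each gene taken at its brightest probe set, Pfkp had the largest SD over the 7 arrays (0.41) of the 8 genes, though dimmer probe sets of Aldoa (0.743 and 0.439) and Pfkl (0.721) varied more. The genes with the most similar profile to it were sought among 6949 others at or above the median level. The highest Pearson correlations over the 7 arrays were 0.997 for Dffb, 0.987 for Coa5, 0.985 for Zfp91, 0.985 for Hnrnpul2 and 0.983 for Mthfd2. All 5 were lowest in wild-type replicate 3. Among members, Pgk1 and Hk2 correlated with Pfkp at 0.814 and 0.754 and Aldoa at −0.814, and 482 genes were more alike to Pfkp than Pgk1 was. These values describe 7 arrays that share sample-to-sample differences of every kind, and with so many genes compared high values occur readily.

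Aldolase and triosephosphate isomerase stand next to each other in the pathway, and their probe sets told the same arrays apart. Aldoa read 9.01, 9.11 and 9.07 in TFIIA nc/nc and 9.11, 8.98, 9.86 and 9.68 in wild type at its brightest probe set. Wild-type replicates 3 and 4 were high, and wild-type replicates 1 and 2 lay close to the TFIIA nc/nc arrays. The same pair of wild-type arrays was highest in all 4 Aldoa probe sets, and the most spread of them reached 9.70 and 9.03 there, whereas TFIIA nc/nc had 7.82, 8.31 and 7.97 and wild-type replicates 1 and 2 had 7.63 and 8.05. All 4 probe sets carry the suffix x_at, which Affymetrix gives where probes may also bind other transcripts, and Aldoa has close relatives and processed copies in the genome.

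The Aldoa differences were −0.34, −0.36, −0.25 and −0.57, none of them past the threshold (limma, adjusted p = 0.984 each), with exact permutation p from 0.314 to 0.429. Without wild-type replicate 3 they were −0.19, −0.16, −0.07 and −0.21, in the same order. At the brightest probe set TFIIA nc/nc averaged 9.06 ± 0.05 (SD, n = 3) and wild type 9.41 ± 0.43 (SD, n = 4). Tpi1, which interconverts the trioses made by aldolase, read 9.21, 9.50 and 9.52 in TFIIA nc/nc, against 9.11, 9.37, 9.71 and 9.90 in wild type. Wild-type replicates 3 and 4 were again highest and wild-type replicate 1 lowest, in each of its 3 probe sets. The Tpi1 differences were −0.11, −0.23 and −0.15 (adjusted p = 0.984 each in limma).

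Gapdh, the next enzyme in line, had no probe set naming it alone in the annotation used. It was read only from control probe sets, which were kept out of the fit. Its 3' control read 9.70, 10.21 and 10.01 in TFIIA nc/nc, against 9.65, 9.96, 11.02 and 10.91 in wild type, and the middle and 5' controls had the same highest arrays. Its difference was −0.41 (exact permutation p = 0.4). For the actin 3' minus 5' signal TFIIA nc/nc replicate 2 had 2.15 and wild-type replicates 3 and 4 had 1.94 and 2.12, against 2.62 to 2.99 in the other 4 arrays, and actin, like Gapdh, is a control transcript. With that signal as a covariate the brightest Aldoa and Tpi1 probe sets differed by −0.18 and 0.03. In samples of 2 or more embryos alone, which leaves wild-type replicates 3 and 4 as the wild type, they differed by −0.71 and −0.39, with adjusted p of 0.202 and 0.488 in limma. Wild-type replicates 1 and 2, left out there, had a Y-linked minus Xist signal of 0.52 and 1.21, against −9.85 to −4.51 in the other arrays. Pool size and sex therefore cannot be told apart in that setting. With the Y-linked minus Xist signal as a covariate, in all 7 arrays, the differences were −0.70 and −0.30.

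**Figure D2:**
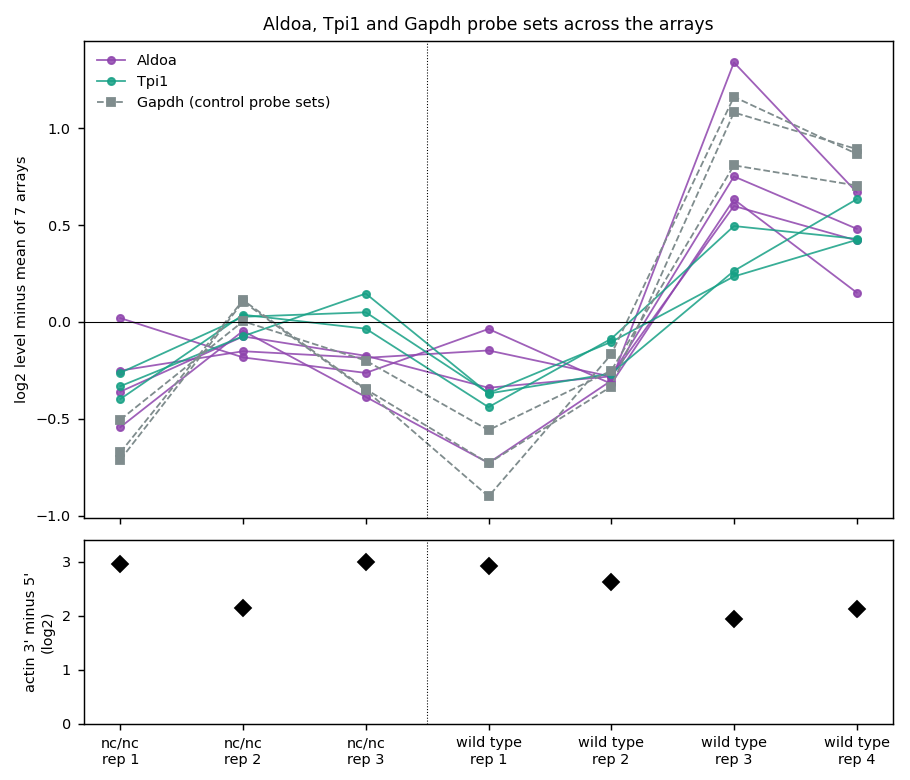
Upper panel: log2 level minus the mean of the 7 arrays for 4 Aldoa probe sets, 3 Tpi1 probe sets and 3 Gapdh control probe sets, by array, with TFIIA nc/nc left of wild type. Lower panel: the 3' minus 5' signal of actin in log2 units. Wild-type replicates 3 and 4 are highest for every line in the upper panel, and their actin signal, 1.94 and 2.12, is the lowest of the 7 arrays.

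Phosphoglycerate kinase yields the first ATP of the pathway. Pgk1 read 10.35, 10.50 and 10.54 in TFIIA nc/nc, against 10.28, 10.23, 10.06 and 10.41 in wild type at its brightest probe set. The TFIIA nc/nc arrays lay above 3 of the 4 wild-type arrays, and wild-type replicate 4 overlapped them. The difference was 0.22 (SE 0.15; limma, adjusted p = 0.984; exact permutation p = 0.114), and the other Pgk1 probe sets differed by 0.06 and 0.13. Pgk1 is on the X chromosome. The Y-linked minus Xist signal reached 0.52 and 1.21 for wild-type replicates 1 and 2, whereas the other 5 arrays had −9.85 to −4.51, and with that measure as a covariate the brightest probe set differed by 0.29.

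Lactate dehydrogenase is a tetramer of A subunits, from Ldha, and B subunits, from Ldhb, and the A form is the HIF-1 target that favours lactate production. Ldha read 10.25, 10.53 and 10.31 in TFIIA nc/nc, against 10.16, 10.11, 10.10 and 10.21 in wild type. All 3 TFIIA nc/nc arrays lay above all 4 wild-type arrays, with a small gap between 10.25 in TFIIA nc/nc replicate 1 and 10.21 in wild-type replicate 4. TFIIA nc/nc averaged 10.36 ± 0.15 (SD, n = 3) and wild type 10.15 ± 0.05 (SD, n = 4). The difference of 0.22 (SE 0.14) did not pass (limma, Benjamini-Hochberg adjusted p = 0.984), and its exact permutation p of 0.0286 is the smallest that 35 assignments allow. After cyclic loess normalization the groups overlapped, with a difference of 0.19, and the brightest Pgk1 probe set no longer overlapped. Without TFIIA nc/nc replicate 2 it was 0.13.

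Ldhb is not among the 10 genes and is given because it encodes the partner subunit. It read 6.48, 6.14 and 6.68 in TFIIA nc/nc, against 6.83, 7.10, 7.24 and 7.21 in wild type at its brightest probe set, again with no overlap but in the other direction. Its 4 probe sets differed by −0.66, −0.61, −0.66 and −0.77, each with groups that did not overlap and an exact permutation p of 0.0286, and none passed over all probe sets (limma, adjusted p = 0.984 for the brightest). The log2 signal of Ldha minus that of Ldhb was 3.76, 4.40 and 3.63 in TFIIA nc/nc, against 3.33, 3.01, 2.86 and 3.00 in wild type. Signals of different probe sets are not on a common scale, so only the change of this value between arrays is meaningful, and the pair was singled out after its values were seen.

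**Figure D3:**
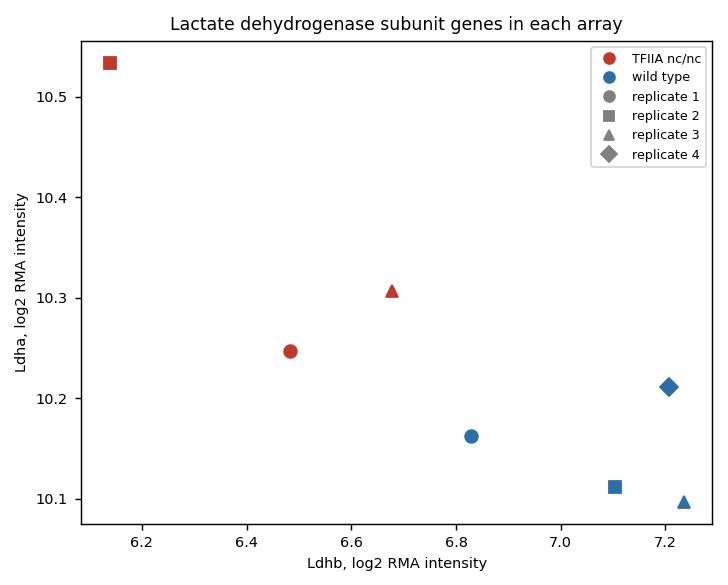
Log2 RMA intensity of Ldha (vertical) against Ldhb (horizontal), the brightest probe set of each, 1 point per array. The 3 TFIIA nc/nc arrays (red) lie at upper left, with Ldhb at 6.14 to 6.68 and Ldha at 10.25 to 10.53, and the 4 wild-type arrays (blue) at lower right, with Ldhb at 6.83 to 7.24 and Ldha at 10.10 to 10.21.

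**Figure D4:**
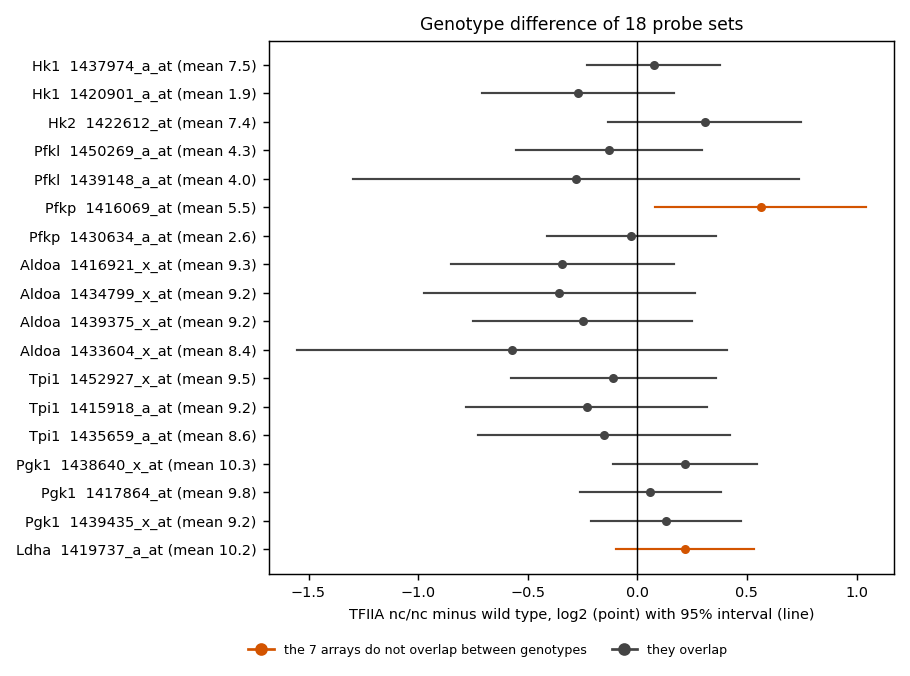
Difference of TFIIA nc/nc minus wild type in log2 units for the 18 glycolytic probe sets, from the first to the last step of the pathway, with 95% intervals from limma. Numbers beside the names are mean log2 levels, and orange marks the Pfkp and Ldha probe sets whose groups do not overlap. The interval of that Pfkp probe set alone, 0.08 to 1.04, leaves out 0.

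Of 21 other glycolytic enzyme genes, 16 were measured, and none passed in limma over all probe sets. At an unadjusted p under 0.05, 0 were higher and 1, Ldhb, was lower, against 2.02% and 2.41% of genes represented by 1 probe set each. Bpgm, which makes the 2,3-bisphosphoglycerate of red cells, had 6.07, 5.54 and 5.65 in TFIIA nc/nc, against 5.48, 5.50, 5.36 and 5.12 in wild type, with no overlap and a difference of 0.39 (SE 0.18). Dimmer Bpgm probe sets, at 2.26 to 2.88 and 2.49 to 3.76, differed by 0.16 and 0.63 with overlapping groups. The latter had an unadjusted limma p of 0.0353 and did not pass. Pgam1, the mutase above enolase, differed by 0.12 (SE 0.15). Pkm, pyruvate kinase, read 5.32, 5.93 and 4.80 in TFIIA nc/nc, against 5.30, 4.92, 5.61 and 6.10 in wild type, and the groups overlapped throughout. Gapdhs, the sperm form of Gapdh, differed by −0.48 (SE 0.32).

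Of 11 transport genes, 10 were measured and 0 passed or had an unadjusted p under 0.05 in limma. The glucose carriers Slc2a1 and Slc2a3 differed by −0.07 (SE 0.17) and −0.05 (SE 0.16). Slc16a1, the monocarboxylate carrier MCT1 that moves lactate, read 8.10, 8.58 and 8.39 in TFIIA nc/nc, against 7.46, 7.83, 7.71 and 8.45 in wild type, where replicate 4 overlapped (difference 0.50, SE 0.24). Bsg, its chaperone basigin, differed by −0.55 (SE 0.28) with wild-type replicate 3 highest at 7.56. Slc2a8, an intracellular hexose carrier, read 4.43 to 4.58 in TFIIA nc/nc and 4.60 to 5.21 in wild type, with no overlap (difference −0.38, SE 0.17). Slc16a3, another lactate carrier, was dim at 2.00 to 3.04 and differed by −0.13.

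Of 20 regulators 15 were measured, with 0 past either threshold in limma. Hif1a and Meis1, a homeodomain factor known to raise Hif1a in blood stem cells, differed by 0.04 (SE 0.22) and 0.03 (SE 0.18). Pyruvate dehydrogenase kinases hold pyruvate out of the mitochondrion's oxidative path, and Pdk1 and Pdk3 differed by 0.13 (SE 0.24) and 0.00 (SE 0.50). Pdk2 and Pdk4 were dim in most arrays and differed by 0.16 and 0.09. The oxygen sensor Egln3, the glycolytic activator Pfkfb3 and Myc had the smallest p of this list, with differences of 0.36 (SE 0.22), 0.35 (SE 0.26) and 0.22 (SE 0.17). Dimmer probe sets of Egln3 and Pfkfb3 had the opposite sign, at −0.12 (SE 0.18) and −0.21 (SE 0.16).

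Of 7 genes for the entry of pyruvate into mitochondria 5 were measured. Their differences were 0.03 to 0.29 and none passed. Pdhb, a pyruvate dehydrogenase subunit, read 8.99, 9.06 and 9.01 in TFIIA nc/nc, against 8.87, 8.78, 8.67 and 8.62 in wild type, with no overlap (difference 0.29, SE 0.14). A dimmer Pdhb probe set, at 3.455 to 4.136, differed by 0.463 (SE 0.144), also with no overlap. Its unadjusted limma p of 0.01015 did not pass over all probe sets (adjusted p = 0.984). Dlat and Dld, other subunits of the complex, differed by 0.19 and 0.17.

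Of 7 genes of the pentose phosphate pathway, which branches off after hexokinase, 6 were measured and none passed. Pgls, Taldo1 and Pgd differed by −0.44 (SE 0.24), 0.14 (SE 0.14) and 0.23 (SE 0.24), and wild-type replicates 3 and 4 were highest for Pgls. Of 6 gluconeogenic genes, Pck2, the mitochondrial phosphoenolpyruvate carboxykinase, differed by −0.43 (SE 0.14), with an exact permutation p of 0.0286 and a limma p of 0.0154 that did not pass over all probe sets (adjusted p = 0.984). It read 5.76, 6.11 and 6.03 in TFIIA nc/nc, against 6.40, 6.33, 6.36 and 6.48 in wild type. The other Pck2 probe set, at 4.11 to 4.87, differed by −0.22 (SE 0.22) with overlapping groups. Fbp1 and Fbp2, the opposing phosphatases of the phosphofructokinase step, were dim and differed by −0.21 and 0.29.

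Of 17 other HIF target genes 15 were measured and none passed in limma, with a median difference of −0.01. At an unadjusted p under 0.05, 0 were higher and 1 lower, against 2.02% and 2.41% of all genes. That gene, Vegfa, the endothelial growth factor, read 2.80, 2.93 and 2.86 in TFIIA nc/nc, against 3.42, 3.34, 3.36 and 3.37 in wild type, both below the array medians. Its other probe set differed by −0.12 with overlapping groups. The oxidase Ero1a and the carbonic anhydrase Car12 differed by 0.35 (SE 0.16) and 0.39 (SE 0.23). A dimmer Ero1a probe set, at 4.83 to 5.53, differed by 0.49 (SE 0.15), with no overlap and TFIIA nc/nc higher. Its unadjusted limma p of 0.00928 did not pass over all probe sets (adjusted p = 0.984). The dimmest Ero1a probe set, at 2.275 to 3.476, differed by 0.006 with overlapping groups. The counts for this list take each gene at its brightest probe set.

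**Figure D5:**
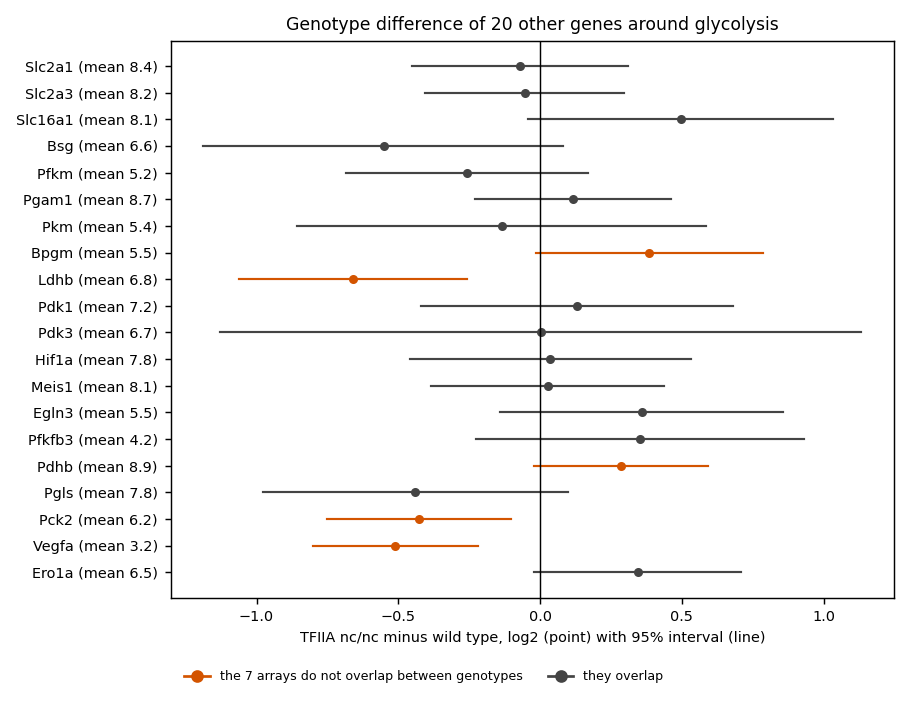
Difference of TFIIA nc/nc minus wild type in log2 units, with 95% intervals, for 20 genes of transport, neighbouring enzymes, regulation and other HIF targets. Orange marks genes whose groups do not overlap. Of these, Bpgm and Pdhb have differences above 0 with intervals that include 0, and Ldhb, Pck2 and Vegfa have intervals wholly below 0.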

How the data were processed

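Stem cells sorted from 3 TFIIA nc/nc and 4 wild-type samples were each measured on 1 array. The deposited values are RMA intensities made by the authors in Affymetrix Expression Console (submitters' processing notes). Versions were not given in the sources used here. The intensities are linear, so log2 was taken without a pseudocount. Depth has no meaning for arrays, and their number limits the precision.

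Gene names came from the platform annotation and were updated by Entrez identifier (12369 of 12393 genes matched a RefSeq table of GRCm38.p6). Of 22690 probe sets, 64 controls were left out. The test of genotype was limma 3.58.1 (lmFit, then eBayes) under R 4.3.3 with no covariate, adjusted by Benjamini-Hochberg over 22626 probe sets. Exact permutation tests were 2-sided over 35 assignments. The fit was tested on 10 simulated sets at each of 2 sizes of change, with the same adjusted threshold. It recovered 39.9% of changes of 1 log2 unit and 91.6% of those of 2 units. False calls per set were 3.3 and 9.8. Smaller changes, like those of the members, were not simulated. Samples are called biological replicates in the labels, and no litter shared between genotypes is named.

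The members, lists and tests were chosen with earlier results of these data known. All members were named, with each list's genes of smallest p and a set of pathway genes. Other settings covered the probe sets, normalization, pseudocount, moderation, covariates and left-out arrays. The replicate numbers were not treated as pairs in the main fit. Deviations from group means correlated at 0.364, −0.145 and 0.048 for numbers 1, 2 and 3. A litter or sort day shared by samples of the same number was not tested. Plots used matplotlib 3.10.9 in Python 3.11.15.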

Additional observations from a re-analysis of the deposited data

Results flagged for a closer look

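In 4 of 51 probe sets examined, members and named pathway genes, 1 wild-type array lay far from the other 3, and chance gives about 1 in 20 such cases. Pfkl had 4.775 in wild-type replicate 1, while the others had 4.174 to 4.242. Pgk1, at its middle probe set, read 9.706 in wild-type replicate 3, against 9.856 to 9.865. Pdk4 read 3.668 in wild-type replicate 1, against 1.333 to 1.489. Endothelial transcripts were high in that array and in TFIIA nc/nc replicates 1 and 2, where Pdk4 read 1.736 and 2.820. A link between them was not tested. Taldo1 read 8.12 in wild-type replicate 2, against 8.359 to 8.408. Groups of 3 were not examined in this way.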

How the results depend on the processing

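The members, Ldhb and the counts over all probe sets were recomputed under up to 21 other settings, and the count of non-overlapping members under 11. Gapdh and the other pathway genes were not recomputed. No glycolytic probe set passed under any of them, and the lowest adjusted p was 0.137, for an Aldoa probe set in pooled samples only. Of 366 recomputed differences 343 kept their sign, and 11 of the 18 probe sets kept it throughout, among them those of Hk2, Ldha and all 4 of Aldoa. Some of the 343 could not change, because restricting the probe sets or changing the moderation leaves every difference as it was. The probe set of Pfkp at 5.87 in TFIIA nc/nc ranged from 0.378 to 0.832 and Ldha from 0.131 to 0.275. Over all probe sets 1 passed, but 14 in pooled samples only and 0 in the 4 arrays of low endothelial transcripts, where the lone TFIIA nc/nc array is assumed to vary like the wild type, and 1 to 2 when 1 array was left out. The count of non-overlapping members, 2 higher and 0 lower, became 11 in pooled samples only, with 2 higher and 9 lower (all 4 probe sets of Aldoa, 3 of Tpi1 and 1 each of Hk1 and Pfkl), against 14.3% and 13.1% of all probe sets. It was 10 in those 4 arrays, with 8 higher and 2 lower, against 22.2% and 20.1%, and 2 to 4 when 1 array was left out. In the 4 arrays of low endothelial transcripts the brighter probe sets of Hk1 and Pfkl differed by −0.077 and 0.119. The dim Pfkp probe set differed there by 0.270. That Pfkp probe set also turned with cyclic loess (0.003), quantile normalization (0.004), pooled samples (0.092) and the sex measure (0.109), and ranged from −0.135 to 0.108 when 1 array was left out, as Pfkl did from −0.186 to 0.015 and from −0.547 to 0.101. The brighter Pfkl probe set turned with pooled samples (0.004), where the dimmer one differed by −1.038. The dimmer one turned with the endothelial covariate (0.066), where the brighter one differed by −0.216. Tpi1 turned with the endothelial (0.039 and 0.037) and actin (0.003 and 0.033) covariates. Tpi1 ranged from −0.296 to 0.038, from −0.247 to 0.016 and from −0.411 to −0.098, and Pgk1 from −0.013 to 0.146, when 1 array was left out. With the replicate number as a block 1 probe set passed, as without it. The dimmer Pfkl probe set (0.101) and Tpi1 (0.038 and 0.016) turned. Wild-type replicate 4 is the only array of its number, so these differences equal those found when that array was left out. Only 1 of 3 TFIIA nc/nc arrays correlated best with the wild-type array of its own number. The causes were not tested. Scan batches were not tested, and Gpi1 and Eno1 were not analysed here.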
